A study of Mus musculus with 6 samples.

Results

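The 7 genes described here are Krt8, Krt18, Krt19, Epcam, Cdh1, Dpp4 and Cd24a, a set of markers of the luminal epithelium of the prostate, taken by symbol from a table of 24091 genes. All 7 were found in the table and all 7 passed the filter on low counts, which 15050 genes passed. They were measured by RNA sequencing in 6 libraries of whole mouse tissue, 2 in each of 3 groups. Prostate tumors came from mice with a humanised allele that encodes a tract of either 12 glutamines (12Q) or 48 glutamines (48Q). Both tumor genotypes also carried 1 copy of Ctnnb1, the β-catenin gene, with a conditional exon 3 (written Ctnnb1(Ex3)L/wt in the labels) and the PBCre-4 transgene, in which a probasin promoter drives Cre recombinase in prostate epithelium. The remaining libraries came from normal wild-type prostate (WT), without these alleles, so that the humanised allele, the β-catenin allele, Cre and the tumor itself cannot be told apart in the comparisons with WT. Ages, and whether each library came from its own animal, are not given in the labels, and the spread that p-values rest on here, between libraries of a group, may be technical.

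The prostate gland is lined by tall secretory luminal cells that rest on a thin layer of basal cells. Luminal cells hold a simple-epithelium cytoskeleton in which Krt8, a type II keratin, polymerises with the type I keratins Krt18 and Krt19. They are joined by E-cadherin, the product of Cdh1, whose cytoplasmic tail binds β-catenin, and by the adhesion molecule Epcam. Dpp4 encodes CD26, a membrane peptidase that removes dipeptides from chemokines and peptide hormones, and Cd24a encodes a small glycoprotein held in the membrane by a lipid anchor. Krt8, Krt18 and Dpp4 are used to mark luminal cells, while Krt19, Epcam, Cdh1 and Cd24a also occur in basal cells, so the set marks epithelium as a whole as well as its luminal layer. CD26 also occurs on T cells and fibroblasts, and CD24 on B cells, neutrophils and red blood cells.

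The genes lie apart from each other except for Krt8 and Krt18, whose start sites on mouse chromosome 15 are 23.9 kb apart and point away from each other (mm10, Krt8 from 101996711 to 102004342 on the minus strand and Krt18 from 102028216 to 102032026 on the plus strand). Krt19 is on chromosome 11 (100140811 to 100145926, minus strand), Epcam on chromosome 17 (87635979 to 87651127, plus strand), Cdh1 on chromosome 8 (106603350 to 106670247, plus strand), Dpp4 on chromosome 2 (62330073 to 62412231, minus strand) and Cd24a on chromosome 10 (43579169 to 43584265, plus strand). Promoter sequences from RefSeq (GRCm38.p6) were at hand for only 4 of the 7 members, which were Krt8, Krt18, Epcam and Dpp4. Each window runs from 250 bases before the start site to 50 bases after it. Those of Krt8 and Krt18 are shown because these partner keratins had the closest profiles of any pair of members, and that of Epcam because its level relative to Cdh1 separated the tumors from WT. Capitals mark CAGGTG or its reverse complement CACCTG, the E-box letters that Snail and Zeb repressors bind in the promoter of Cdh1.
Krt8, chr15:102004293-102004592, minus strand: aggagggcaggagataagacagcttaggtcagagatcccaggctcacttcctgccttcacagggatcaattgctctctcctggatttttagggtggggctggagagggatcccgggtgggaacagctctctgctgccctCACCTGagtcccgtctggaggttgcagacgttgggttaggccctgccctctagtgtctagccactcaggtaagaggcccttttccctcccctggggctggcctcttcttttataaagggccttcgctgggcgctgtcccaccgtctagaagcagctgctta
Krt18, chr15:102027966-102028265, plus strand: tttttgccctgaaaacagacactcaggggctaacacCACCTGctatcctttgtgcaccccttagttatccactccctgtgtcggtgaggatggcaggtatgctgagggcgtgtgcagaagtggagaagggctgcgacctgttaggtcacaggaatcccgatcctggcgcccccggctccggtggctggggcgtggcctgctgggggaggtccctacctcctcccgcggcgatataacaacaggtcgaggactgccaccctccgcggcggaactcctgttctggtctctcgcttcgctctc
Epcam, chr17:87635729-87636028, plus strand: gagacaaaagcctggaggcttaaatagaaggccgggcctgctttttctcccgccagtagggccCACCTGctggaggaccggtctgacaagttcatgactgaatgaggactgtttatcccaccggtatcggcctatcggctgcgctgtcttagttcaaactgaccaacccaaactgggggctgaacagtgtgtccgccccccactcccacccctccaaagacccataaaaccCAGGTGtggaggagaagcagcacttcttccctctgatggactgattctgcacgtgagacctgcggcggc
The first base of the E-box letters stood 111 bases before the start site in Krt8, 214 before it in Krt18, and 187 and 19 before it in Epcam. The Dpp4 window held none. Of all 32851 promoter windows of this length, 20.2% held the letters on either strand. None of the 4 windows held CTTTGAT or its reverse complement ATCAAAG, letters bound by TCF/LEF factors, which 3.73% of all windows held. A match of letters is a description and not a sign of binding.

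Libraries held 26416181 to 28559546 counts. Levels are given as CPM, counts scaled to a common library total after TMM, where TMM is edgeR's correction for differences in composition between libraries. The 2 WT libraries stood apart from each other in these genes. Of the 7 members, 5 differed by more than 2-fold (1 on the log2 scale) between the WT replicates, while 0 did so in either tumor group. Among all genes tested 21.3% did so in 12Q, 5.14% in 48Q and 25.6% in WT. WT replicate 1 was the higher WT library in 6 of the 7 members. The WT libraries also differed in other tissue markers. Summed over 8 smooth muscle genes they held 2369 CPM in WT replicate 1 and 6000 CPM in WT replicate 2. The sum over 10 squamous epithelium genes was 216.5 and 224 CPM in 12Q, 89.7 and 74.6 CPM in 48Q, and 259 and 7.51 CPM in WT. The part of these differences in the results on the 7 genes was not tested, and each comparison with WT is therefore given with and without each WT library.

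All 7 genes were strongly expressed in every library. Compared per length, as CPM per kb of gene length, Cd24a, Krt18 and Krt19 ranked between 7 and 88 of the 24091 genes in each library. Krt8, Cdh1 and Epcam ranked between 38 and 414, and Dpp4 between 617 and 1534. In 12Q tumors the mean levels per kb were 1600 ± 232 CPM per kb for Krt18, 1395 ± 516 for Cd24a and 1315 ± 224 for Krt19 (SD, n = 2), which did not differ beyond their spread. Krt8 followed at 492 ± 178, then Cdh1 at 240 ± 15.1 and Epcam at 233 ± 44.0, which did not differ beyond their spread, and Dpp4 at 66.9 ± 27.3. In 48Q tumors Cd24a stood at 517 ± 24.0 CPM per kb, Krt19 at 468 ± 8.09 and Krt18 at 462 ± 67.04. Below them in 48Q were Cdh1 at 163 ± 7.17, Krt8 at 143 ± 13.3, Epcam at 118 ± 28.8 and Dpp4 at 61.2 (57.5 and 64.9 in the 2 libraries). In WT prostate the order was Cd24a at 1688 ± 719 CPM per kb, Krt18 at 1046 ± 743, Krt19 at 1031 ± 1046, Epcam at 464 ± 286, Krt8 at 275 ± 245, Cdh1 at 225 ± 123 and Dpp4 at 46.8 ± 2.13. The SDs of neighbours in the WT order overlapped, apart from Cdh1 and Dpp4, but the genes share their libraries. Within each WT library Cd24a stood highest, then Krt18 and Krt19, then Epcam, then Krt8 and Cdh1, with Dpp4 lowest. Krt18 and Krt19 changed places between the WT libraries, as did Krt8 and Cdh1. By these means per kb Epcam stood above Krt8 and Cdh1 in WT and below both in each tumor group, although in 12Q it lay within the spread of Cdh1.

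**Figure D1:**
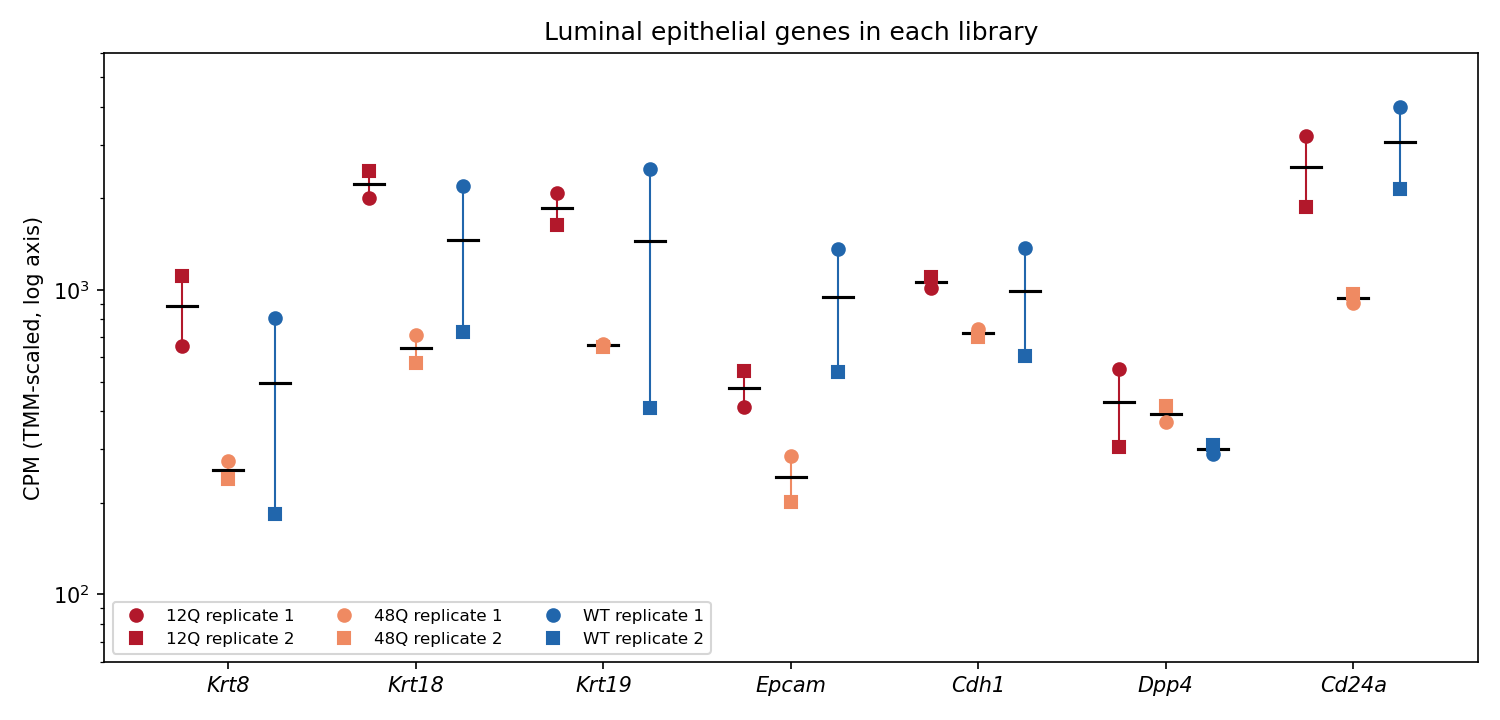
Level of each gene in each library in TMM-scaled CPM on a log axis, with 12Q, 48Q and WT from left to right within each gene. Circles are replicate 1, squares replicate 2, thin lines join the replicates of a group and black bars are group means. The WT replicates lie far apart for the keratins, from 183 to 806 CPM in Krt8, while the 48Q replicates lie close together.

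Krt8, the type II keratin of simple epithelia, had 657 and 1110 CPM in 12Q tumors, 273 and 239 CPM in 48Q tumors, and 806 and 183 CPM in WT prostate. Both 12Q libraries lay above both 48Q libraries, and the WT pair spanned the 48Q libraries and the lower 12Q library. Krt18, its type I partner, had 2001 and 2457 CPM in 12Q, 709 and 577 CPM in 48Q, and 2190 and 726 CPM in WT. Again 12Q was high and 48Q low, and WT replicate 1 stood between the 12Q libraries while WT replicate 2 stood just above 48Q. Krt19, a type I keratin that lacks the tail domain of other keratins, had 2074 and 1628 CPM in 12Q, 666 and 650 CPM in 48Q, and 2493 and 411 CPM in WT. The 6.07-fold gap between the WT libraries in Krt19 was the widest between replicates among the 7 genes, and the WT pair enclosed all 4 tumor libraries.

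Cdh1, the E-cadherin gene, had 1012 and 1106 CPM in 12Q, 744 and 699 CPM in 48Q, and 1375 and 607 CPM in WT. The 12Q libraries lay above the 48Q libraries, and all 4 lay between the WT libraries. Epcam, which mediates contact between epithelial cells and binds Cldn7, had 414 and 542 CPM in 12Q, 285 and 201 CPM in 48Q, and 1365 and 537 CPM in WT. The 48Q libraries were below all others, and 12Q replicate 2 lay just above WT replicate 2.

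Dpp4 had 551 and 304 CPM in 12Q, 368 and 415 CPM in 48Q, and 290 and 309 CPM in WT. It was the one member in which the WT libraries lay close together, and in which the 12Q and 48Q libraries overlapped. Cd24a had 3193 and 1868 CPM in 12Q, 907 and 969 CPM in 48Q, and 3985 and 2140 CPM in WT. Both 48Q libraries lay below the other 4.

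The comparison of 12Q tumors with WT prostate asks how short-tract tumors differ from normal tissue in these genes. No member passed edgeR's quasi-likelihood test at an adjusted p under 0.05, where 22.4% of all genes tested were called. None had an unadjusted p under 0.05, beside 5796 of the 15050 genes tested. DESeq2 and limma-voom called none either, beside 4916 and 3314 of all genes. In all 7 members the 12Q and WT libraries overlapped, while in 60.5% of all genes tested they did not (12Q above in 30.1% and below in 30.4%). The median log2 fold change of the members was 0.35, beside -0.01 over all genes tested. The largest fitted increase was in Krt8, at 1.79-fold (log2 0.84, SE 0.67, edgeR adjusted p = 0.400), with a 95% interval on the log2 scale from -0.79 to 2.46. The largest decrease was in Epcam, with a log2 fold change of -0.99 (SE 0.49, 95% interval -2.18 to 0.19, edgeR adjusted p = 0.19). Cdh1 was at 0.10 (SE 0.44, 95% interval -0.97 to 1.16, edgeR adjusted p = 0.892). Krt19 was at 0.35 (95% interval -1.50 to 2.20), an interval that leaves room for more than a 2-fold difference in either direction. The fit of Krt18 was 0.61 (95% interval -0.74 to 1.97), that of Dpp4 0.51 (-0.31 to 1.34) and that of Cd24a -0.28 (-1.47 to 0.92).

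The 12Q result turned on which WT library was used. Without WT replicate 1, Krt8 and Krt19 were called higher in 12Q, with log2 fold changes of 2.27 and 2.18 (edgeR adjusted p = 0.0404 and 0.0309), and Krt18 stood at 1.62 (edgeR adjusted p = 0.0544). In that fit Epcam was at -0.16 (edgeR adjusted p = 0.763), Cdh1 at 0.81, Dpp4 at 0.47 and Cd24a at 0.25. Without WT replicate 2, Epcam was called lower at -1.52 (edgeR adjusted p = 0.0486), while Krt8 stood at 0.13, Krt18 at 0.02, Krt19 at -0.43, Cdh1 at -0.38, Dpp4 at 0.56 and Cd24a at -0.66. The lone WT library in these fits is assumed to vary like the other groups. Fewer epithelial cells and less RNA per cell cannot be told apart in whole tissue.

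**Figure D2:**
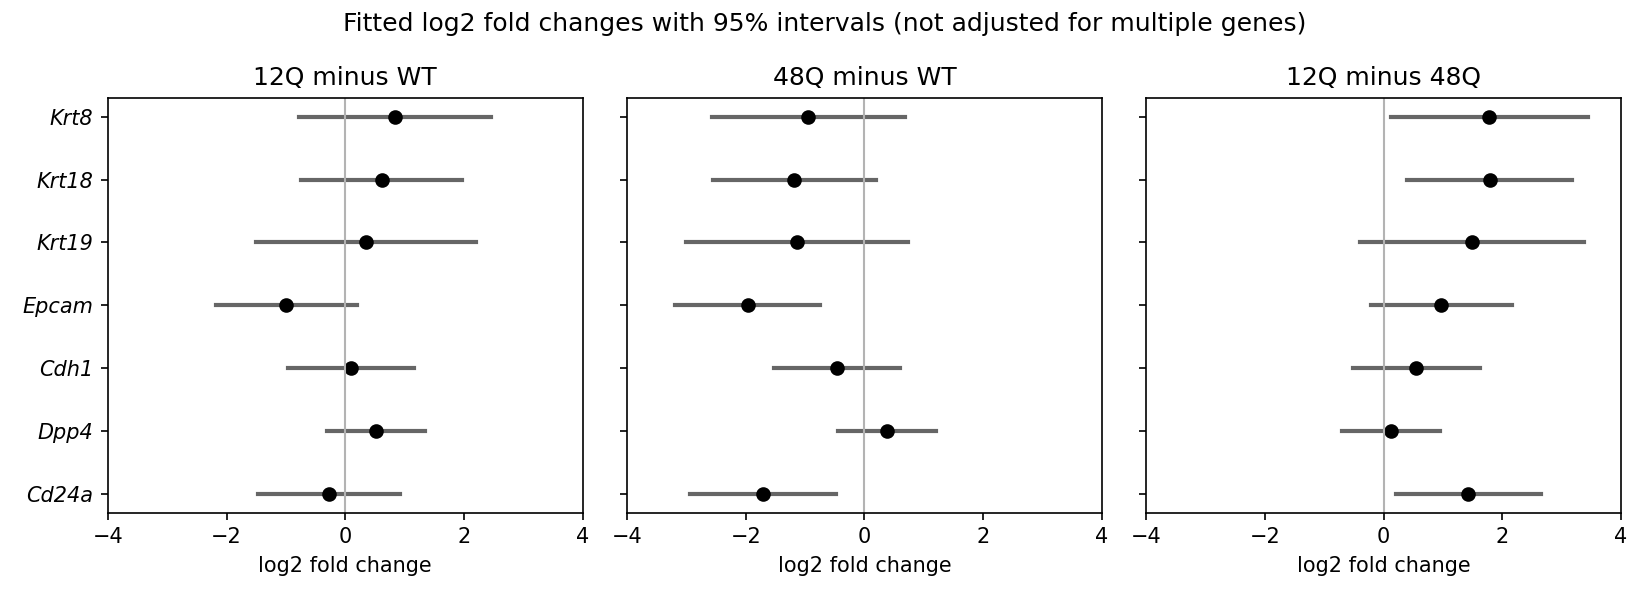
Fitted log2 fold change of each gene (points) with its 95% interval (lines) in 12Q minus WT, 48Q minus WT and 12Q minus 48Q. In 12Q minus WT every interval spans 0. In 48Q minus WT the intervals of Epcam (-3.19 to -0.75) and Cd24a (-2.94 to -0.48) lie below 0, and in 12Q minus 48Q those of Krt8, Krt18 and Cd24a lie above 0, before adjustment over all genes.

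The comparison of 48Q tumors with WT prostate asks the same of long-tract tumors, and shares its WT libraries with the one above. No member was called by edgeR, where 5.18% of all genes tested were called. Beside 3749 of the 15050 genes tested, 2 members had an unadjusted p under 0.05. These were Epcam, at 243 ± 59.1 CPM in 48Q against 951 ± 586 CPM in WT (SD, n = 2 each), and Cd24a, at 938 ± 43.6 against 3063 ± 1304. Epcam had a log2 fold change of -1.97 (SE 0.50, edgeR adjusted p = 0.0748) and Cd24a one of -1.71 (SE 0.51, edgeR adjusted p = 0.105). DESeq2, which called 2540 genes in all (979 lower), called both lower (DESeq2 adjusted p = 0.00125 and 0.00107). Neither was called by limma-voom, which called 889 genes in all. Both 48Q libraries lay below both WT libraries in Krt18, Epcam and Cd24a, which is 3 of 7 members beside 29.8% of all genes tested, and above them in Dpp4, 1 of 7 beside 34.7% (in either direction 4 of 7, beside 64.5%). The other fits were -0.95 in Krt8 (95% interval -2.57 to 0.68), -1.18 in Krt18 (-2.55 to 0.19), -1.14 in Krt19 (-3.01 to 0.73), -0.46 in Cdh1 (-1.53 to 0.61) and 0.39 in Dpp4 (-0.44 to 1.21). The median over the members was -1.14, beside 0.02 over all genes tested.

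Here too the WT library mattered. Without WT replicate 1, the signs of Krt8, Krt19 and Cdh1 turned to 0.48, 0.68 and 0.24, and Krt18 stood at -0.18 (edgeR adjusted p = 0.827). Epcam and Cd24a were at -1.15 and -1.19 in that fit (edgeR adjusted p = 0.19 and 0.253), and Dpp4 was at 0.34. In that fit no gene of the whole table was called, though 2972 had an unadjusted p under 0.05. Without WT replicate 2, Epcam was called lower at -2.50 (edgeR adjusted p = 0.0436), and no other member was called. Krt8 stood at -1.66, Krt18 at -1.78, Krt19 at -1.93, Cdh1 at -0.94, Dpp4 at 0.42 and Cd24a at -2.10. With library totals in place of TMM, Cdh1 was at 0.27. Under that scaling the median of all genes stood at 0.71 in place of 0.02, and Cdh1 lay below that median.

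**Figure D3:**
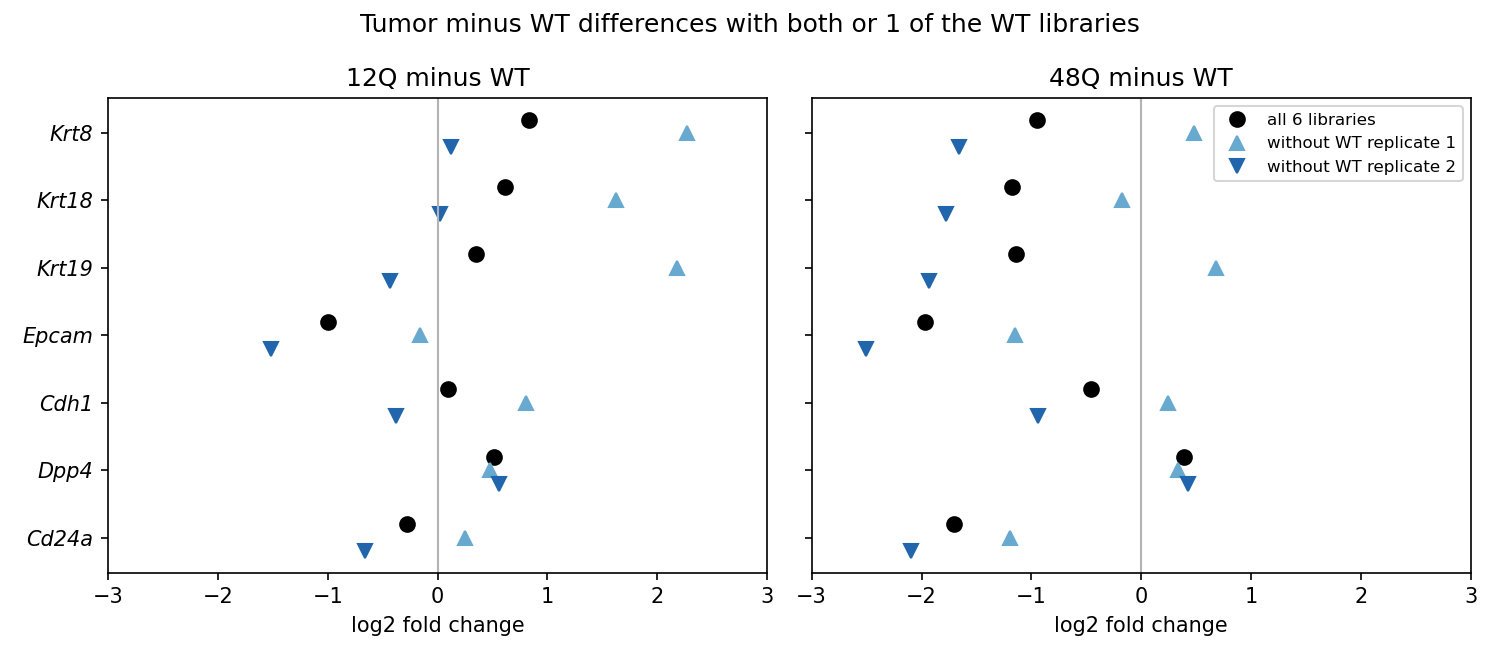
Fitted log2 fold changes of the 7 genes in 12Q minus WT (left) and 48Q minus WT (right), with all 6 libraries (black circles), without WT replicate 1 (light triangles) and without WT replicate 2 (dark triangles). Krt19 in 12Q minus WT moves between 2.18 and -0.43 with the WT library used, while Dpp4 stays between 0.47 and 0.56.

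12Q tumors were compared with 48Q tumors to ask what the length of the tract changes between tumors, a comparison in which the WT libraries bear on the estimate of spread and on scaling alone. In 6 of 7 members both 12Q libraries were above both 48Q libraries, beside 31.3% of all genes tested, and the exception was Dpp4. In no member was 12Q below 48Q, beside 35.5% of all genes (either direction 66.8%). No member was called by edgeR, where 4.17% of all genes tested were called. Beside 3961 of the 15050 genes tested, 3 members had an unadjusted p under 0.05. These were Krt8, at 3.44-fold (log2 1.78, SE 0.69, edgeR adjusted p = 0.167), Krt18, at 3.47-fold (log2 1.79, SE 0.58, edgeR adjusted p = 0.122), and Cd24a, at 2.70-fold (log2 1.43, SE 0.51, edgeR adjusted p = 0.144). DESeq2, which called 2481 genes in all (920 higher), called these 3 genes higher in 12Q (DESeq2 adjusted p = 0.0398, 0.00806 and 0.00972). No member was called by limma-voom, which called 1101 genes in all. Krt18 was also called by edgeR when only the tumor libraries were fitted (log2 1.81, edgeR adjusted p = 0.0470). Of 15 alternative settings 4 called Krt18, and none of these 4 left out a tumor library. Its log2 fold change was 1.80 without WT replicate 1 or 2, and 1.65 to 1.96 without 1 tumor library at a time. Krt19 was at 1.49 (95% interval -0.40 to 3.38), Epcam at 0.98 (-0.21 to 2.16), Cdh1 at 0.55 (-0.51 to 1.62) and Dpp4 at 0.13 (-0.70 to 0.95). The median over the members was 1.43, beside 0.00 over all genes tested. Red blood cells carry CD24, and 5 of their genes summed to 154 and 130 CPM in 12Q, 12.01 and 57.6 CPM in 48Q, and 17.7 and 43.2 CPM in WT, and their part in the Cd24a result was not tested.

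Ratios between members within a library do not depend on how libraries are scaled. Epcam over Cdh1, per kb, was 0.880 and 1.05 in 12Q tumors, 0.824 and 0.619 in 48Q tumors, and 2.14 and 1.90 in WT prostate. Every tumor library was thus at or below 1.05 and both WT libraries were at or above 1.90, although the WT libraries differed 2.54-fold in Epcam itself. The mean log2 ratio differed by -1.07 in 12Q minus WT and by -1.50 in 48Q minus WT (exact two-sided permutation p = 0.333 each, the smallest that 2 libraries against 2 allow). Epcam over Krt8 was 0.552 and 0.427 in 12Q, 0.912 and 0.735 in 48Q, and in WT 1.48 and 2.57, with no overlap between any of the groups. The share of all gene pairs without such overlap was not computed. For levels of single genes the share without overlap was 60.5% in 12Q minus WT, 64.5% in 48Q minus WT and 66.8% in 12Q minus 48Q. Cdh1 over Krt8 was 0.627 and 0.406 in 12Q, below the 1.11 and 1.19 of 48Q and the 0.694 and 1.35 of WT. The ratios of Epcam to the keratin and to the cadherin thus lay below WT in all 4 tumor libraries, while that of Cdh1 to Krt8 lay below WT in 12Q and between the WT libraries in 48Q.

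The keratins kept closer proportions. Krt18 over Krt8, per kb, was 3.93 and 2.86 in 12Q, 3.35 and 3.11 in 48Q, and in WT 3.50 and 5.11, and Krt19 over Krt8 was 4.03 and 1.87 in 12Q, 3.11 and 3.46 in 48Q, and in WT 3.94 and 2.86. The groups overlapped in Krt19 over Krt8 in all 3 comparisons. In Krt18 over Krt8 both 48Q libraries lay below both WT libraries, while 12Q overlapped WT and 48Q. Krt8 over the sum of Krt18 and Krt19 lay between 0.126 and 0.212 in the 6 libraries, so type I keratin exceeded Krt8 per kb in every library. The level of Krt8 is uncertain in that 941 bases of its transcript match the processed pseudogene Krt8-ps at 98.6% identity and the treatment of reads with several matches is not given in the sources used here. Krt18 likewise matches the pseudogene Gm5200 at 90.5% over 1267 bases, and Cd24a matches Gm6212 at 96.8% over 218 bases and Gm15352 at 92.3% over 259 bases. The exons of Krt8 and Dpp4 overlap those of a noncoding gene on the other strand (Gm36026 and Gm13561), whose reads cannot be told apart without the strand setting.
Cd24a over Krt8 was 4.81 and 1.67 in 12Q, 3.29 and 4.01 in 48Q, and in WT 4.89 and 11.6. Both tumor groups lay below WT, 12Q by a narrow margin in replicate 1. Dpp4 over Krt8 was 0.236 and 0.0770 in 12Q, 0.378 and 0.487 in 48Q, and in WT 0.101 and 0.474, with 12Q below 48Q and the WT libraries on either side of the 12Q value of replicate 1.

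**Figure D4:**
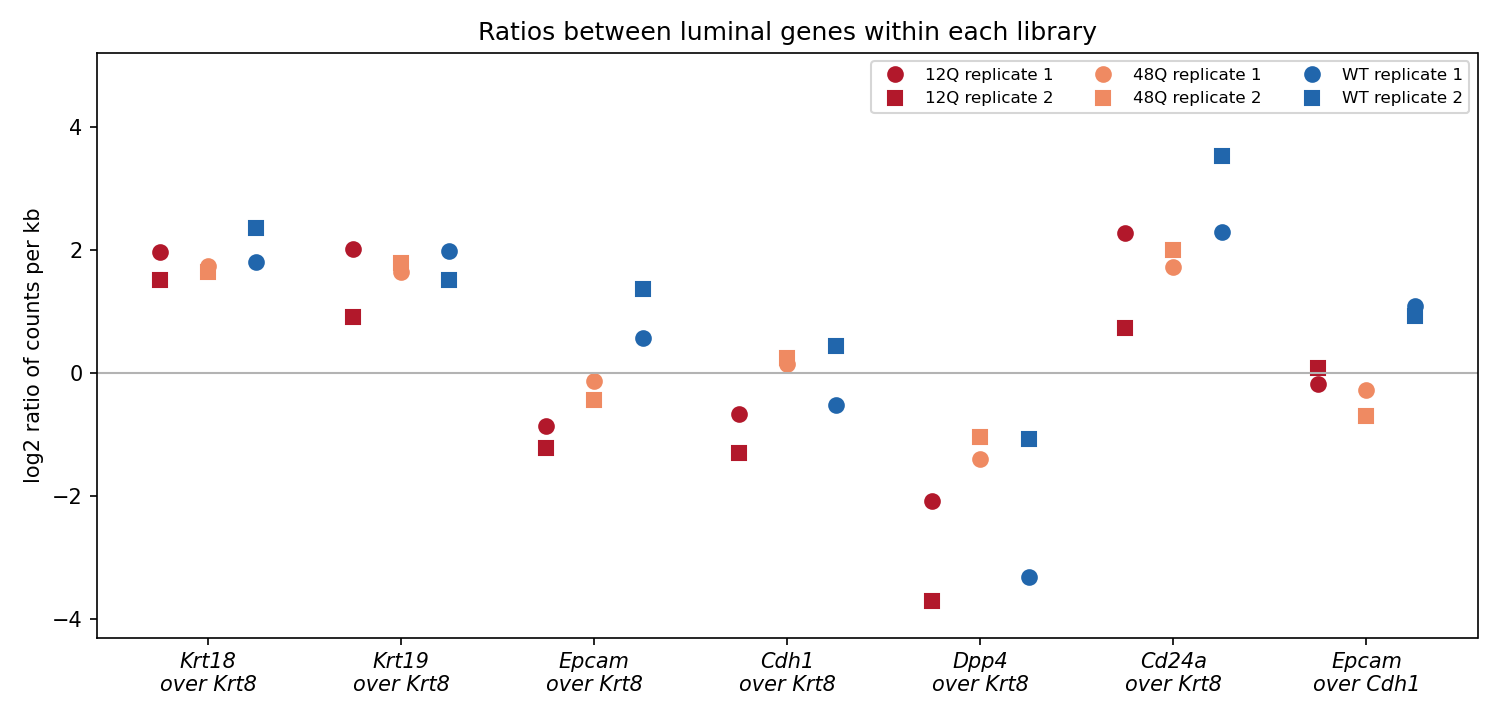
Log2 ratio of counts per kb between pairs of members in each library, with 12Q, 48Q and WT from left to right (circles replicate 1, squares replicate 2). Epcam over Cdh1, at the right, stands between -0.69 and 0.08 in the 4 tumor libraries and at 1.10 and 0.93 in the WT libraries.

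Across the 6 libraries the members fell into related profiles, described here by the distance between centred log2 CPM values, where 0 means the same shape and size of change. Krt8 and Krt18 were the closest pair (distance 0.66, Pearson r = 0.96 over 6 libraries), and Krt18 was the gene most like Krt8 among 9259 genes with a mean of at least 10 CPM. The points share their libraries and scaling, so these values are descriptions. Genes most like Krt18 were Sqle, an enzyme of sterol synthesis (distance 0.49), then Krt8 itself and Slc2a1, which encodes the glucose transporter GLUT1 (0.69). Epcam was most like Ptges, a prostaglandin E synthase gene (0.37), Arrdc3 (0.45) and Lars2, a mitochondrial leucyl-tRNA synthetase gene (0.54). Cd24a was most like Sars, a seryl-tRNA synthetase gene (0.44), Gpx1, a glutathione peroxidase gene (0.57), and Pfdn5 (0.59). Cdh1 was most like Ube2f (0.16), Bach1 (0.18) and F2rl1 (0.20), Dpp4 like Nit2 (0.13), Cat, the catalase gene (0.19), and Zfyve19 (0.19), and Krt19 like Cdc42ep5 and Chic2 (0.67 each) and Fabp5 (0.69). Dpp4 lay at distances of 1.37 to 2.65 from the other members.

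Genes that work with the members were taken from lists chosen with earlier results of these data known. Of the 3 other keratins of simple epithelia, 2 were higher in 12Q than in WT, 0 lower and 1 not past the threshold (median log2 fold change 2.89, where 11.2% of all genes were called higher and 11.2% lower). Krt7, a keratin of ductal epithelium, had 206 and 391 CPM in 12Q against 8.19 and 3.58 CPM in WT, a log2 fold change of 5.67 (edgeR adjusted p = 0.00409) that was 6.38 without WT replicate 1. Krt23 had 499.9 and 424 CPM in 12Q against 60.9 and 63.9 CPM in WT (2.89, edgeR adjusted p = 0.00294). In 48Q none of the 3 passed against WT (median 0.83). Krt7 had 23.8 and 33.3 CPM in 48Q (log2 fold change 2.28 against WT, edgeR adjusted p = 0.0556). Krt23 had 103 and 118 CPM in 48Q (0.83, edgeR adjusted p = 0.0917). These 2 keratins were called higher in 12Q and the 3 keratins among the members were not, a difference between genes that was not tested. Krt7 overlaps an antisense gene, which makes its counts uncertain.

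Of 6 genes that link keratin filaments to junctions, 3 were higher, 1 lower and 2 not past in 12Q against WT (median 1.21), and 1, 0 and 5 in 48Q (median 0.36), where 3.95% of all genes were called higher and 1.23% lower. Dst, whose epithelial form anchors keratin at the base of basal cells, was the 1 linker called lower in 12Q, against the 3 called higher. It had 58.4 and 42.5 CPM in 12Q against 997 and 524 CPM in WT (-3.91, edgeR adjusted p = 0.00449). In 48Q it had 299 and 267 CPM (-1.43 against WT, edgeR adjusted p = 0.0828). The exons of Dst overlap noncoding genes. Among 10 partners of E-cadherin at adherens junctions, 2 were higher, 0 lower and 8 not past in 12Q against WT (median 0.66), and none passed in 48Q (median 0.06). Nectin4, an adhesion receptor of epithelium, had 72.7 and 119 CPM in 12Q and 64.1 and 68.4 CPM in 48Q, against 26.0 and 32.1 CPM in WT. Its log2 fold change was 1.72 in 12Q (edgeR adjusted p = 0.0132) and 1.19 in 48Q (edgeR adjusted p = 0.0708). The 12Q call was lost without WT replicate 1 (log2 fold change 1.58).

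Of 8 other cadherins, 7 were tested, with 1 higher, 4 lower and 2 not past in 12Q against WT (median -5.46), and 1 higher, 0 lower and 6 not past in 48Q (median 0.54). Cdh17, the cadherin of intestinal epithelium, had 339 and 161 CPM in 12Q and 17.6 and 47.1 CPM in 48Q, while the WT libraries held 3 counts in all. Its CPM ratio to WT was 3378 in 12Q (95% interval 1156 to 16383) and 456 in 48Q (156 to 2215). Without one library at a time the ratio ran from 2249 to 4728 in 12Q and from 246 to 656 in 48Q, and leaving out either WT library ended the 48Q call (edgeR adjusted p = 0.106 and 0.0517). Cdh3, the P-cadherin gene of basal cells, held 3 counts in the 12Q libraries together, a ratio to WT of 0.00437 (95% interval 0.000897 to 0.0128, and 0.00319 to 0.00534 without one library at a time). In 48Q, Cdh3 had 12.1 and 12.1 CPM, against 12.3 and 11.01 CPM in WT. E-cadherin was thus not called in either tumor group, while 1 other cadherin was called higher and 4 lower in 12Q. The part of cell types in these cadherin calls was not tested. The intervals of the CPM ratios above cover counting error only.

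Of 6 transcription factors that repress Cdh1, 1 was higher, 4 lower and 1 not past in 12Q against WT (median -2.34), and 1, 0 and 5 in 48Q (median -0.01). Zeb2 had 74.05 and 53.3 CPM in 12Q and 78.3 and 94.6 CPM in 48Q, against 23.2 and 26.9 CPM in WT (log2 fold changes 1.35 and 1.79, edgeR adjusted p = 0.0172 and 0.0249). The 12Q call of Zeb2 was lost without WT replicate 1 (edgeR adjusted p = 0.0626), and the 48Q call without any of the 48Q or WT libraries (edgeR adjusted p = 0.0538 to 0.162). Twist2 had 0.111 and 0.124 CPM in 12Q (3 and 4 counts) and 3.49 and 2.31 CPM in 48Q, against 1.51 and 3.80 CPM in WT. Its log2 fold change in 12Q was -4.45 (edgeR adjusted p = 0.0133), or -3.64 without WT replicate 2. The 12Q call was lost without 12Q replicate 2 (-4.52). Zeb2 and Twist2 overlap antisense genes, and both also occur in fibroblasts and, for Zeb2, in macrophages. Over 6 macrophage genes the summed level was 198 and 212 CPM in 12Q, 260 and 249 CPM in 48Q, and 69.9 and 69.05 CPM in WT, and over 9 fibroblast genes 172 and 481 CPM in 12Q, 1167 and 1043 CPM in 48Q, and 648 and 760 CPM in WT. Their part in the levels of these factors was not tested.

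Of 21 genes common to epithelia, such as splicing factors, Grainyhead factors and claudins, 4 were higher, 1 lower and 16 not past in 12Q against WT (median 0.22), and none of the 21 passed in 48Q (median -0.15). Their summed level was 5370 and 4566 CPM in 12Q, 3468 and 3503 CPM in 48Q, and 4628 and 4805 CPM in WT. Klf5, a transcription factor of epithelial proliferation, had 95.5 and 115 CPM in 12Q against 10.8 and 3.09 CPM in WT. Its log2 fold change in 12Q was 3.93 (edgeR adjusted p = 0.00911), or 5.09 without WT replicate 1 and 3.28 without WT replicate 2. In 48Q Klf5 had 23.7 and 23.7 CPM (1.78 against WT, edgeR adjusted p = 0.109). Of 7 genes for partners and proteases of Epcam, 4 were higher, 0 lower and 3 not past in 12Q (median 1.10), and 1, 0 and 6 in 48Q (median 0.54).

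Of 8 members of the dipeptidyl peptidase family besides Dpp4, 7 were tested, and 1 was higher, 0 lower and 6 not past in 12Q (median 0.00), with none passing in 48Q (median -0.10). The gene called was Dpp7, a lysosomal peptidase gene, which had 22.3 and 19.1 CPM in 48Q (log2 fold change 2.31 against WT, edgeR adjusted p = 0.0591). In 12Q it had 31.2 and 17.7 CPM against 2.40 and 5.92 CPM in WT (2.55, edgeR adjusted p = 0.0215). Leaving out 12Q replicate 1 ended its call (2.13, edgeR adjusted p = 0.0583), as did leaving out WT replicate 1 (2.05, edgeR adjusted p = 0.0546), and its value was 3.34 without WT replicate 2. Of 11 prostate luminal factors and surface markers, 10 were tested, with 2 higher, 3 lower and 5 not past in 12Q (median -0.90), and 2, 1 and 7 in 48Q (median -0.95). Spdef, a transcription factor of secretory luminal cells, had 0.740 and 1.30 CPM in 12Q, against 82.03 and 54.3 CPM in WT (-6.05, edgeR adjusted p = 0.00572). In 48Q it had 20.6 and 6.30 CPM (-2.34 against WT, edgeR adjusted p = 0.0759). Calls among these luminal genes thus went in both directions.

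Between 12Q and 48Q tumors, where 1.01% of all genes were called higher and 3.16% lower, the calls in the same lists were 2 higher of 3 simple keratins, 1 lower of 6 filament linkers, 0 of 10 adherens junction partners, 1 higher and 2 lower of 7 other cadherins, and 1 lower of 6 Cdh1 repressors. None passed among 21 common epithelial genes, 7 Epcam partners and 7 peptidases, and 1 of 10 luminal factors was lower. The medians were 2.06, 0.67, 0.48, -4.20, -1.92, 0.43, 0.56, 0.08 and -0.12 in the same order.

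Levels of basal and other cell type markers are given beside the members. Of 8 basal epithelium genes, 1 was higher, 5 lower and 2 not past in 12Q against WT, and none passed in 48Q. Summed over these 8 genes the level was 666 and 948 CPM in 12Q, 954 and 1005 CPM in 48Q, and 940 and 660 CPM in WT, most of it from the integrin gene Itga6 (542 and 749 CPM in 12Q, 597 and 696 CPM in 48Q, and 640 and 372 CPM in WT). Trp63, which encodes the basal transcription factor p63, had 0.0370 and 0.186 CPM in 12Q, 29.6 and 24.2 CPM in 48Q, and 33.9 and 42.9 CPM in WT. Its log2 fold change in 12Q against WT was -8.32 (edgeR adjusted p = 0.0027), or -7.61 without 12Q replicate 1 and -9.85 without 12Q replicate 2. The 12Q libraries held 1 and 6 counts of Trp63, so the size of this change rests on few reads. All 8 smooth muscle genes were lower in 12Q and 3 were lower in 48Q, their sum being 55.4 and 54.5 CPM in 12Q and 888 and 319 CPM in 48Q, against 2369 and 6000 CPM in WT. For Dpp4, 6 T cell genes summed to 6.73 and 7.02 CPM in 12Q, 13.8 and 11.7 CPM in 48Q, and 2.19 and 6.37 CPM in WT. For Cd24a, 5 B cell genes summed to 1.22 and 0.588 CPM in 12Q, 1.93 and 1.25 CPM in 48Q, and 1.67 and 4.69 CPM in WT, and 6 neutrophil genes to 8.58 and 31.4 CPM in 12Q, 12.2 and 13.001 CPM in 48Q, and 0.261 and 0.221 CPM in WT. Uroplakin genes of the urothelium summed to 904 and 139.5 CPM in 12Q, 119 and 134 CPM in 48Q, and 268 CPM in each WT library, and 7 seminal vesicle secretion genes to 1.55 and 2.44 CPM in 12Q, 26.0 and 49.2 CPM in 48Q, and 0.730 and 0.884 CPM in WT. Endothelial genes (7) summed to 262 and 300.2 CPM in 12Q, 131 and 129.8 CPM in 48Q, and 76.2 and 109 CPM in WT. The part of these cell types in the values of the 7 genes was not tested.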

How the data were processed

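The deposited table holds whole-number read counts per gene for 6 libraries, beside the gene length in kb, without normalization by the authors. The submitters' processing notes name TopHat2 2.0.14, HTSeq 0.6.0 and mm10, and the sources used here do not give the annotation, strand setting or handling of reads with several matches. The identity of the humanised gene is not reported here. Columns that matched no sample numbered 0. Genes were kept by filterByExpr (minimum count 10, minimum total 15), scaled by TMM and fitted with all 3 groups together (edgeR 4.0.16 in R 4.3.3, 3 residual degrees of freedom, common dispersion 0.143). P-values of the quasi-likelihood test were adjusted by Benjamini and Hochberg over 15050 genes at a threshold of 0.05. Code was tested on simulated data. DESeq2 1.42.0, limma 3.58.1 (voom) and other scalings, filters and sample choices served as alternatives. Profiles used log2 CPM with a prior count of 2. Gene overlaps and copies (at least 90% identity over 200 bases) come from GENCODE M21. A count of 3 equals 0.0855 to 0.156 CPM.

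The members, lists and tests were chosen with earlier results of these data known. By rule, up to 3 genes per list and comparison qualify for naming, those with the smallest adjusted p past the threshold, and where none passed the 2 highest. Those printed are a selection from these, made after their values were seen. In no group did the replicates agree within counting noise (chi-square over degrees of freedom 42.1 to 268).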

Additional observations from a re-analysis of the deposited data

Results flagged for a closer look

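The change of 12Q tumors from WT differed from that of 48Q tumors in 8 of the genes named beside the members. The test was that of the difference itself (12Q minus 48Q, edgeR adjusted p under 0.05). All 8 qualified for naming by passing this same test, so their number is no result about the lists or the members. In 4.17% of all genes tested, and in no member, this difference had such a p. On the log2 scale this difference was 3.39 in Krt7 (edgeR adjusted p = 0.0289) and 2.06 in Krt23 (edgeR adjusted p = 0.0205), both calls being lost without either 48Q replicate, and that of Krt7 also without either 12Q replicate (edgeR adjusted p = 0.0554 to 0.181). It was 2.95 in Cdh17 (edgeR adjusted p = 0.0464), a call lost without any 1 of the 6 libraries. That call was also lost with library totals, with upper-quartile scaling, with the replicate number as a block and with only the tumor libraries fitted (edgeR adjusted p = 0.0525 to 0.0648). Without 1 library the value for Cdh17 was as low as 2.35 (12Q replicate 1 left out) and as high as 3.83 (48Q replicate 2 left out). It was -3.70 in Spdef (edgeR adjusted p = 0.0402), a call that leaving out any library but 48Q replicate 2 ended. The Spdef call was also lost with limma-voom (limma-voom adjusted p = 0.0742) and with only the tumor libraries fitted (edgeR adjusted p = 0.06). Its values were -2.61 without 48Q replicate 1 and -4.31 without 48Q replicate 2. It was -2.49 in Dst (edgeR adjusted p = 0.0324) and -4.57 in Twist2 (edgeR adjusted p = 0.0364), both lost without any 1 of the 4 tumor libraries (edgeR adjusted p = 0.0806 to 0.201). It was -7.79 in Cdh3 (edgeR adjusted p = 0.00813), called without each library in turn, where the 12Q libraries held 3 counts in all and the CPM ratio of 12Q to 48Q was 0.00417 (95% interval 0.000859 to 0.0122). The ratio for Cdh3 was 0.00305 to 0.00511 without one library at a time. The log2 difference was -7.80 in Trp63 (edgeR adjusted p = 0.00813), called without each library in turn, where the 12Q libraries held 1 and 6 counts. Its values were -7.12 without 12Q replicate 1 and -9.33 without 12Q replicate 2.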

How the results depend on the processing

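For each comparison 15 alternatives were run. With 12Q minus WT, the 7 members gave 0 calls in all of them except those without a WT library, and 0 to 2 calls when one library was left out. In 48Q minus WT, DESeq2 called 2 members and leaving out one library gave 0 to 1. In 12Q minus 48Q, DESeq2 called 3, the fit of only the tumor libraries 1, and leaving out one library 0 to 1. Among all genes, 12Q minus WT gave 3370 calls, 1887 with only the 2 groups fitted, and 1861 to 2934 without one library. 48Q minus WT gave 780, 2001 with library totals, 2540 with DESeq2, and 0 to 1215 without one library. 12Q minus 48Q gave 627, 2481 with DESeq2, 1101 with limma-voom, and 47 to 866 without one library. Some members that were not called changed sign. With library totals, Cd24a in 12Q minus WT was at 0.24, Cdh1 in 48Q minus WT at 0.27 and Dpp4 in 12Q minus 48Q at -0.080. Library totals moved the median of all genes to 0.48, 0.71 and -0.19, and the share of calls that were higher to 76.0%, 95.9% and 14.1%, from 50.1%, 76.3% and 24.2% under TMM, in the order 12Q minus WT, 48Q minus WT and 12Q minus 48Q. With DESeq2 that share was 61.5% in 48Q minus WT and 37.1% in 12Q minus 48Q. Without one library, 12Q minus WT ran from -0.43 to 2.18 in Krt19, -0.38 to 0.81 in Cdh1 and -0.67 to 0.25 in Cd24a (0.06 without 12Q replicate 2). In 48Q minus WT it ran from -1.66 to 0.48 in Krt8, -1.93 to 0.68 in Krt19 and -0.94 to 0.24 in Cdh1. In 12Q minus 48Q it ran from -0.33 (without 12Q replicate 1) to 0.51 in Dpp4. The cause of these changes was not tested. Of the 21 differences in ratios between groups, 13 kept their sign without each library in turn and 8 did not. Relative to Krt8, the sign changed for Krt18 in 12Q minus 48Q, Krt19 in all 3 comparisons, Cdh1 in 48Q minus WT (-0.23 without WT replicate 1), Dpp4 in 12Q minus WT (0.42 without WT replicate 2) and 48Q minus WT, and Cd24a in 12Q minus 48Q. Of the values of named list genes under the alternatives 1121 kept direction and call, 214 lost the call and 0 changed sign.

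Deviations of same-numbered libraries correlated at 0.0252 (12Q and 48Q), 0.134 (12Q and WT) and -0.103 (48Q and WT). Each group gives only the difference between its replicates, so these values cannot decide whether replicate numbers pair the libraries. The labels do not say whether they do. With the replicate number as a block, 3066, 854 and 605 genes were called, and 0 members in each comparison.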
